A study of Homo sapiens with 6 samples.

Results

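RNA pol II occupancy was compared gene by gene between WT HepG2 cells and HepG2 cells without SHP-1, from the list of RPB1 regions of each. RPB1 is the largest subunit of RNA pol II, and HepG2 is a human liver tumor cell line. The WT library came from a CRISPR control and the KO library from a CRISPR knockout of SHP-1, the protein-tyrosine phosphatase that PTPN6 encodes. Both were untreated HepG2 cells. The paper describes lines grown from single cells after transfection of Cas9 and a guide RNA, nontargeting in the control, and also untransfected cells. It does not state which of its lines gave the ChIP-seq libraries, so clone and genotype cannot be told apart. There was 1 RPB1 library per side, with a matching pair for RPB1 phosphorylated on serine 2 (pSer2), so differences could not be checked in replicates and p-values were not given. Members were all genes to which the authors' annotation assigned at least 1 RPB1 region in either list. They numbered 14746, of 16428 genes with a region in any of the 4 lists of the series. The WT list held 46043 regions of 14164 genes and the KO list 41605 regions of 13459 genes. Of these, 12877 genes were in both lists, 1287 in the WT list only and 582 in the KO list only.

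RNA pol II is recruited at promoters, often pauses a short way into the gene and is then released into elongation, when serine 2 in the repeats of the RPB1 tail becomes phosphorylated. Signal at a promoter therefore reflects recruited and paused enzyme, and signal over the gene body and pSer2 reflect enzyme that transcribes. SHP-1 is known as a negative regulator of insulin and cytokine signaling, and it was studied here for its effect on RNA pol II occupancy in liver cells. Because ChIP-seq was done on bulk chromatin, fewer cells that use a gene and less RPB1 per cell cannot be told apart.

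For each gene the number of regions, the highest fold enrichment over input among its promoter regions and the highest among its gene body regions were taken. Each value was turned into a percentile among the genes of the same list, from 0 for the lowest to 100 for the highest. Without read counts it could not be checked whether the fold enrichments of both libraries were on 1 scale. A gene is said to have fallen or risen when its percentile in SHP-1 KO cells was at least 20 points lower or higher than in WT cells. It is said to have held at the same place when the shift was still at least 20 points once all overlapping regions of the other list were read, whatever gene name they carried there, or when the other list had no region there. The defining genes of hepatocytes were occupied in both lists. Of 10 hepatocyte markers, 9 had a promoter region in WT and 9 in KO cells, with percentiles from 12.9 to 99.4 and from 4.49 to 98.4, and APOA1 was the exception in both. Of 5 leukocyte markers, 2 had a promoter region in WT and 1 in KO cells, with LYZ, the lysozyme gene, at the 73.6 and 85.1 percentile. Of 4 fibroblast markers PDGFRB had one in both lists, with 3 regions in each, and of 4 endothelial markers PECAM1 had one in both, with 17 and 11 regions. In contrast, PTPRC, CD3E, COL1A1, COL1A2, DCN, VWF, CDH5 and KDR had no region of any class in either list.

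The promoters of 4 genes are shown, since they had some of the largest shifts that held at the same place and are the DNA on which the regions lay. TNFSF9 and HEY2 fell, and SPDYC and PRIMA1 rose. Each window runs from 250 bases before to 50 bases after the start in RefSeq (GRCh38.p14), 5′ to 3′ on the strand of the gene, and the RPB1 region of each list covered the whole window. TNFSF9 lies at chr19:6530776-6531075 on the forward strand, HEY2 at chr6:125749382-125749681 on the forward strand, SPDYC at chr11:65169983-65170282 on the forward strand and PRIMA1 at chr14:93788436-93788735 on the reverse strand. Capitals mark 3 promoter motifs on either strand, the TATA box (TATAAA), the CCAAT box (written as its name) and the GC box (GGGCGG).
TNFSF9: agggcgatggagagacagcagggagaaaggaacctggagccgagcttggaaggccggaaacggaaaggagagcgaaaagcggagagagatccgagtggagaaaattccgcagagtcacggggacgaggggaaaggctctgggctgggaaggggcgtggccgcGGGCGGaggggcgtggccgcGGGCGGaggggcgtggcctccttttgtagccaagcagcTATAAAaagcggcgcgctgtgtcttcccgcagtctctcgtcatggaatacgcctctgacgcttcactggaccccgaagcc
HEY2: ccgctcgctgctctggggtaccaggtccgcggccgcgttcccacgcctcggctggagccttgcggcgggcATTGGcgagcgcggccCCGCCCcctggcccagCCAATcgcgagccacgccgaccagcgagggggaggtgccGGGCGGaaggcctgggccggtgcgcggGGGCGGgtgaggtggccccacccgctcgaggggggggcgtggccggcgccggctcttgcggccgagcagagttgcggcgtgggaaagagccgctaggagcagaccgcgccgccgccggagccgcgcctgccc
SPDYC: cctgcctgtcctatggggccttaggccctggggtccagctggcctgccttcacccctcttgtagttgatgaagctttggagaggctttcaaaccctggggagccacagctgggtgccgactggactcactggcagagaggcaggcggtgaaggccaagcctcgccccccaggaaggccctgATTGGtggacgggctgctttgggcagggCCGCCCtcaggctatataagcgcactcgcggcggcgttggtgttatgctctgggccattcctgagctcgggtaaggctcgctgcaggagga
PRIMA1: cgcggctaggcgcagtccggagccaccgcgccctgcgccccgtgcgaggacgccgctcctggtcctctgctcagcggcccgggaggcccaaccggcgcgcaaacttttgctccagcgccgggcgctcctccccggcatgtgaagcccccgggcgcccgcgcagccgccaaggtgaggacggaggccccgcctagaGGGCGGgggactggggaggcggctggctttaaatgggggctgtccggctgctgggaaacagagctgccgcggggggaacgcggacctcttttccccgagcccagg
The TNFSF9 window held 1 TATA box and 2 GC boxes, and its GC content was 63.3%. HEY2 held 2 CCAAT boxes and 3 GC boxes at a GC content of 79.0%. SPDYC held 1 CCAAT box and 1 GC box, and PRIMA1 held 1 GC box.

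Promoter occupancy ranked the genes in much the same order in both cells. Of 11250 genes with a promoter region in both lists, 60.6% kept their percentile within 10 points and the correlation of the percentiles across genes was 0.876, a description, since genes are not replicates. The median shift (KO minus WT) was −1.37 points, with quartiles of −9.30 and 5.95. The fold enrichment itself was higher in WT at 84.8% of these genes, with a median KO to WT ratio of 0.727. The cause was not tested, and ranks and not levels were compared. At the upper end of the order few places changed. TRIM28, a transcriptional corepressor, had 170 in WT and 146 in KO cells, CEBPA, a liver transcription factor, 146 and 133, and FASN, the fatty acid synthase, 144 and 88.7, and the lowest of their percentiles was 99.7.

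Promoter percentiles fell for 828 genes, 7.36% of those compared, and rose for 567 genes, or 5.04%. Of these, 768 falls and 516 rises held at the same place. Ranked among genes of both lists only, 759 fell and 756 rose. With genes of either list ranked together, 695 fell and 736 rose. The excess of falls over rises therefore depends on ranking each gene within its own list. PDGFB, the B chain of platelet-derived growth factor, went from 54.8 in WT to 8.45 in KO cells, or from the 90.2 to the 18.8 percentile. Its pSer2 regions went from 11 to 0. With fold enrichment summed over its promoter regions the shift of −71.4 points was −9.55, so the fall rests on the highest region. The genes from here to the end of the next paragraph, other than PDGFB, were chosen after their values were seen, as the largest shifts that held. TNFSF9, a TNF family ligand, went from 45.1 to 7.77 (percentile 81.4 to 16.4). DENND4C, an exchange factor for Rab GTPases, went from 65.1 to 15.1 (95.3 to 38.7). HEY2, a transcriptional repressor of the Notch pathway, went from 43.9 to 10.3 (79.97 to 24.1). These promoters went from the upper ranks of the WT list to below the middle of the KO list. KRT19, a keratin of biliary and other ductal epithelium, had 59.6 in WT and 14.7 in KO cells. ENTPD2, an ectonucleotidase, had 53.7 and 13.9. LGALS3, the lectin galectin 3, had 47.7 and 12.7, and its pSer2 regions numbered 17 in WT and 2 in KO cells. CGREF1 had 32.5 and 5.41.

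The promoters that rose went from the lower or middle ranks of WT to the upper ranks of KO cells. SPDYC, an activator of cyclin-dependent kinases, had 9.80 in WT and 45.8 in KO cells (percentile 18.3 to 93.2). PRIMA1, the membrane anchor of acetylcholinesterase, had 12.0 and 42.8 (22.2 to 91.4). Neither had a pSer2 region in WT, and SPDYC had 2 and PRIMA1 1 in KO cells. TM4SF5, a 4-pass membrane protein, had 17.9 and 38.0. FAM118B had 21.1 and 41.3. RNU4ATAC, the U4atac RNA of the minor spliceosome, had 22.8 and 44.1, but with regions ranked by q-value its shift was 8.34 points. DNAJB4, a heat shock co-chaperone on chromosome 1 before 87.8 Mb, had 20.8 and 38.3, KCTD15 had 24.7 and 46.9955, and ADHFE1, a mitochondrial transhydrogenase, had 9.28 and 23.8. All 8 were higher in KO cells in fold enrichment as well as in rank, against the general direction of the fold enrichments.

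**Figure D1:**
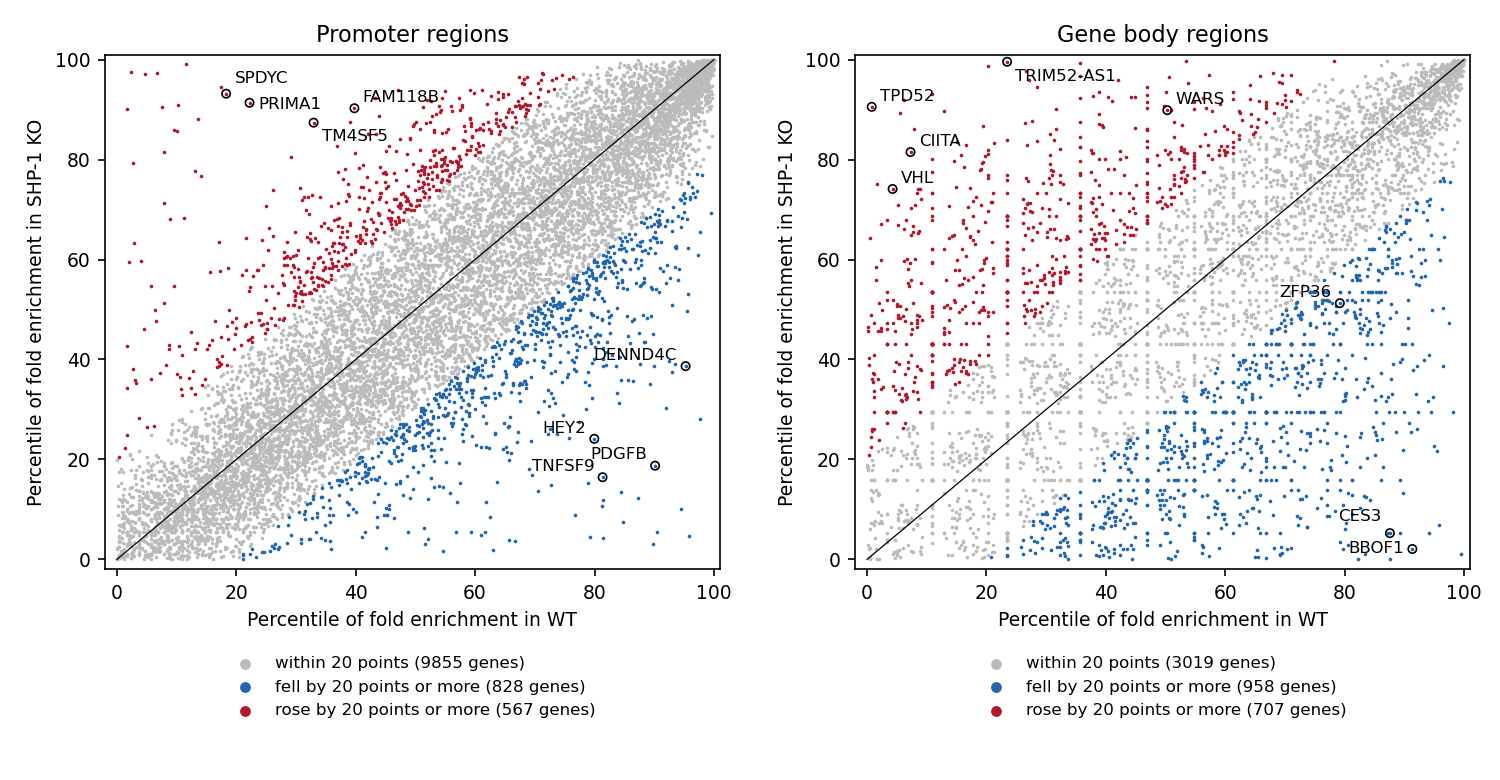
Percentile of the highest fold enrichment of each gene in WT (x axis) and SHP-1 KO cells (y axis), for promoter regions (left) and gene body regions (right), 1 point per gene and 1 library per axis. At promoters 828 genes fell and 567 rose by 20 points or more, and over gene bodies, where rows and columns of points mark values that many genes share, 958 fell and 707 rose.

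**Figure D2:**
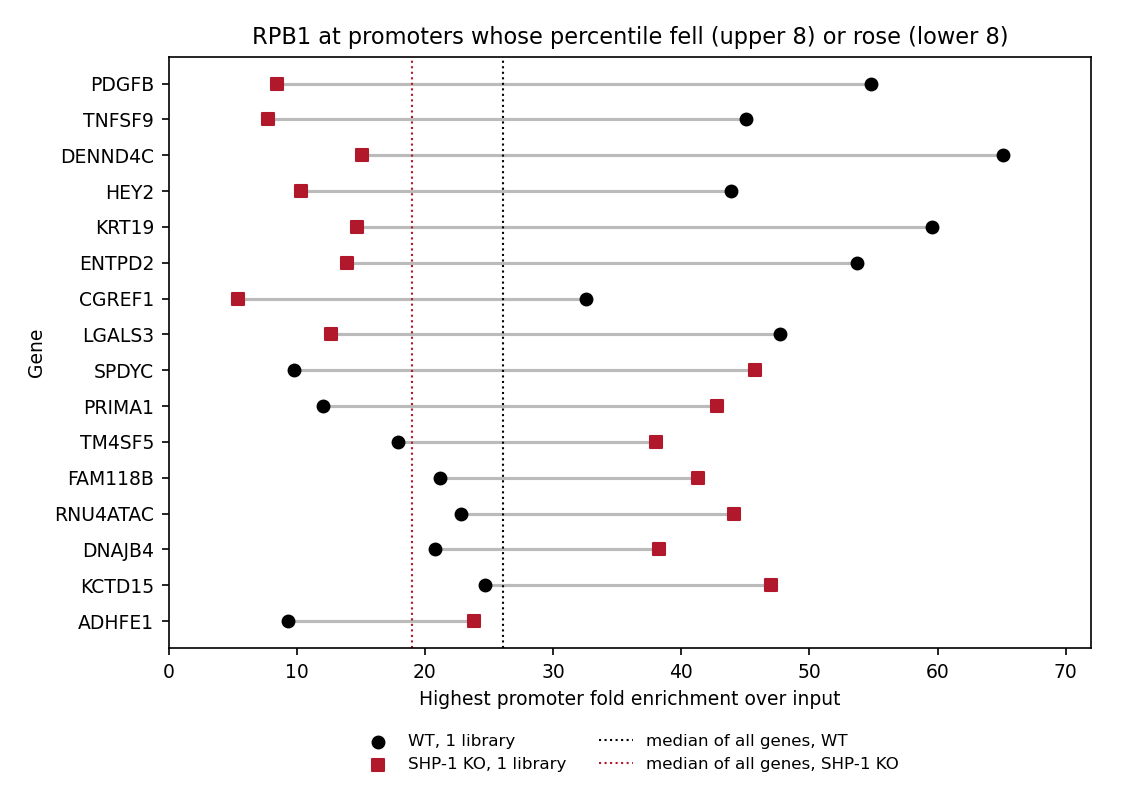
Highest promoter fold enrichment over input in WT (circles) and SHP-1 KO cells (squares) for 8 genes that fell and 8 that rose and held at the same place, with the median over all genes of each list as dotted lines. PDGFB went from 54.8 to 8.45 and SPDYC from 9.80 to 45.8.

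The very largest changes of rank were changes of the gene name. The largest fall was at ATP5F1B, the beta subunit of ATP synthase, from 67.1 in WT to 4.67 in KO cells, but at the place of the WT region the KO list had 34.8. The largest rise was at MORC2, from 4.19 to 58.7, where the WT list had 69.2 under TUG1, the noncoding RNA gene next to it. SETD1A, a histone methyltransferase, went from 4.01 to 41.1, and the WT list had 48.2 there. Of the 8 largest falls only PDGFB held and of the 8 largest rises none did. The same was seen for genes with a promoter region in 1 list only, which numbered 979 in the WT list (7.64% of 12806 genes) and 577 in the KO list (4.51%). The 6 highest of the WT list, which were SNHG7, TMSB10, TUG1, APOA2, SNHG4 and YWHAH, and the 6 highest of the KO list, which were MARCKSL1, MIDN, CTDSP1, SNORA64, SNORD15A and PHPT1, all had a strong region of the other list at the same place under a neighboring gene. For APOA2, an apolipoprotein of high density lipoprotein, the WT value was 66.3 and the KO list had 57.0 there.

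With such places set aside, 812 of the 979 and 320 of the 577 genes had no overlapping region in the other list. Most of these were weak promoters, with median percentiles of 6.15 in WT and 4.63 in KO cells. The highest percentiles were 61.5 and 51.5. The genes named in this paragraph were chosen after their values were seen. In WT only were FKBP11, a peptidyl-prolyl isomerase of the secretory pathway, at 32.04, MEGF6 at 28.5, C2CD4A at 24.997, ALDOC, the brain form of the glycolytic enzyme aldolase, at 23.6, MST1R, a receptor tyrosine kinase, at 18.1, DPYD, which degrades pyrimidines, at 17.2, and CDH1, the epithelial cadherin, at 15.9. In KO only were GALNT13, a glycosyltransferase, at 19.5, MYL9, a myosin light chain of smooth muscle and nonmuscle cells, at 18.3, EXTL1, a glycosyltransferase of heparan sulfate synthesis, at 14.2, and PEX7, a peroxisomal import receptor, at 11.7. CDH1 had 6 regions in WT and 0 in KO cells, and MYL9 0 and 4.

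Gene body ranks were less alike than promoter ranks. Of 4684 genes with a gene body region in both lists, 42.3% stayed within 10 points and the correlation of percentiles across genes was 0.618. They fell for 958 genes (20.5%) and rose for 707 (15.1%), and 869 and 591 of these held at the same place. Ranked among genes of both lists only, 863 fell and 840 rose. A further 1747 genes had a gene body region in WT only (23.0% of 7581) and 1150 in KO only (15.2%). Most gene body values were low and came in steps. In WT, 269 genes shared the value 4.51, at the 23.5 percentile, and 235 the next step, 5.01, at the 35.6 percentile, so 1 step was more than 10 points. In KO cells 214 genes shared 4.75, at the 29.5 percentile, and 195 shared 5.28, at the 43.0 percentile. A shift of 20 points between low values is therefore about 2 steps. Some gene bodies named below, such as KLF10 (−20.7 points), ABCC2 (−21.4) and POLD2 (−23.8), moved by little more than 20 points. ABCC2 did so from a higher value, given below, so these steps do not describe its shift.

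BBOF1, a protein of ciliary basal bodies, went from 14.02 to 3.51 over its gene body (percentile 91.3 to 2.08) while its promoter stayed at the 95.4 and 93.4 percentile. CES3, a carboxylesterase of the liver, went from 11.6 to 3.70, and CDC42EP4, a regulator of the actin cytoskeleton, from 9.78 to 2.87. PRX went from 12.9 to 4.22 and PDLIM2 from 9.40 to 3.58, both chosen after their values were seen. Among rises, TPD52 went from 3.03 to 12.0 over the body while its promoter went from 42.1 to 18.997, a rise and a fall in 1 gene. With regions ranked by q-value its promoter was at −19.0 points. The body of TRIM52-AS1 went from 4.51 to 37.5. Chosen after their values were seen were CIITA, the transactivator of MHC class II genes, from 3.84 to 8.77, VHL, which marks hypoxia-inducible factor for destruction, from 3.53 to 7.47, and MCL1, an antiapoptotic protein, from 3.95 to 7.48, and ORM2, an acute phase plasma protein, from 4.13 to 8.44. Of the 8 largest gene body falls, BBOF1, CES3 and CDC42EP4 held at the same place, and of the 8 largest rises TPD52 and TRIM52-AS1 did. For CIITA and PDLIM2, at least 1 list had no gene body region annotated to the gene's own transcript. The same was true of KLF10 and ABCC5, so the values of these genes may belong to other transcripts. For BBOF1, CES3, CDC42EP4, PDLIM2, CIITA, MCL1 and ORM2, at least 1 list had no gene body region with a −log10 q-value of 5 or more. This was also so for IARS, ABCA1 and ABCC5, whose gene bodies are given below. The shifts of these genes set a region against a weakly called one.

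The number of regions per gene was the same in both lists for 37.3% of genes and within 1 region for 72.9%. At least 3 more regions were listed in WT for 1294 genes (8.78%) and in KO for 716 (4.86%). The length covered by the regions of a gene was longer in WT for 70.0% of genes and longer in KO for 29.9%. Of the 1294 genes, 1239 also had the longer covered length in WT, but of the 716 only 548 had it in KO, so a higher number can mean that 1 long region was listed as several short ones. The largest excess in WT was at MIR551A, a microRNA gene on chromosome 1 before 87.8 Mb, with 28 and 0 regions. ABCC2, the canalicular export pump for conjugated bilirubin, had 50 and 29 regions. ABCC6, a transporter of the liver, had 31 and 12, and GSE1 34 and 16. ARHGEF10L, a guanine nucleotide exchange factor also on chromosome 1 before 87.8 Mb, had 54 and 33. Over ABCC2 the covered length went from 23123 to 10066 bp, and over ABCC6 from 14468 to 6898 bp. MEGF6, next to MIR551A, had 16 regions over 27093 bp in WT and 1 region of 200 bp in KO cells.

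The excess in KO cells was led by IARS, the isoleucyl-tRNA synthetase, with 6 regions over 3507 bp in WT and 24 over 8908 bp in KO cells. FNDC3B had 18 and 36 regions, TGFBR2, the type 2 receptor of transforming growth factor beta, 10 and 27, AARS, the alanyl-tRNA synthetase, 9 and 26, and HLF, a circadian transcription factor of the liver, 18 and 32. Because 2 of these 5 charge transfer RNAs, the 20 cytosolic aminoacyl-tRNA synthetase genes were then listed, a list chosen after values were seen. Of the 20, 10 had at least 3 more regions in KO cells (all genes, 4.86%), 1 had more in WT and 15 had the longer covered length in KO (all genes, 29.9%). Without IARS and AARS, which prompted the list, 8 of 18 had more regions in KO cells, 1 had more in WT and 13 had the longer covered length in KO. In sum the 20 had 94 regions over 60901 bp in WT and 181 over 94999 bp in KO cells. WARS, the tryptophanyl-tRNA synthetase, had 6 regions over 4004 bp and 19 over 12575 bp, GARS 3 and 11, VARS 4 and 11 and NARS 7 and 15. CARS went the other way, with 4 and 1. The highest gene body value of WARS was 5.72 in WT and 11.7 in KO cells and that of IARS 4.65 and 10.6, while their promoters had 32.9 and 30.0, and 23.6 and 22.3 at the place of the WT region. By the highest region the list was not alike over gene bodies. Of 12 genes compared, 4 rose and 2 fell (all genes, 15.1% and 20.5%), with GARS at 7.05 and 5.22 and VARS at 4.93 and 4.09. Both falls depend on the ranking. With genes of either list ranked together, GARS and VARS were at −19.2 and −12.0 points, and with regions summed at 31.8 and 15.005. The pSer2 lists did not show the same excess. The 20 genes had 394 pSer2 regions in WT and 375 in KO cells, where all genes had 95601 and 76227.

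Lists of amino acid supply and of the unfolded protein response were read in the same way. A second list chosen after values were seen held amino acid synthesis and transport genes known to answer to the transcription factor ATF4. Of its 27 occupied genes, 8 had at least 3 more regions in KO cells and 2 in WT (all genes, 4.86% and 8.78%). SLC1A4, a neutral amino acid transporter, had 2 and 15 regions, SLC7A11, the cystine transporter, 2 and 9, and PSAT1, of serine synthesis, 31 and 34 over 16568 and 24713 bp. In the list of the unfolded protein response, which was chosen with earlier results of these data known, the covered length was longer in KO for 20 of 27 genes (all genes, 29.9%) and went from 194585 to 231142 bp in sum, while all genes together went from 37749046 to 31759137 bp. The number of regions hardly moved, at 173 and 171, with at least 3 more in KO for 8 genes and in WT for 6. Both were above the shares over all genes (4.86% and 8.78%). PDIA4, a protein disulfide isomerase, had 25 regions over 17305 bp in WT and 16 over 28935 bp in KO cells, and HYOU1, a chaperone, 11 over 10915 bp and 7 over 17997 bp. PDIA6 had 2 and 8 regions, SEL1L, of the degradation of misfolded proteins, 1 and 6. EIF2AK3, the kinase that senses misfolded protein and acts upstream of ATF4, had 0 and 3, but the WT list had a region of 41.3 at the place under another gene. No promoter of the list fell or rose.

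**Figure D3:**
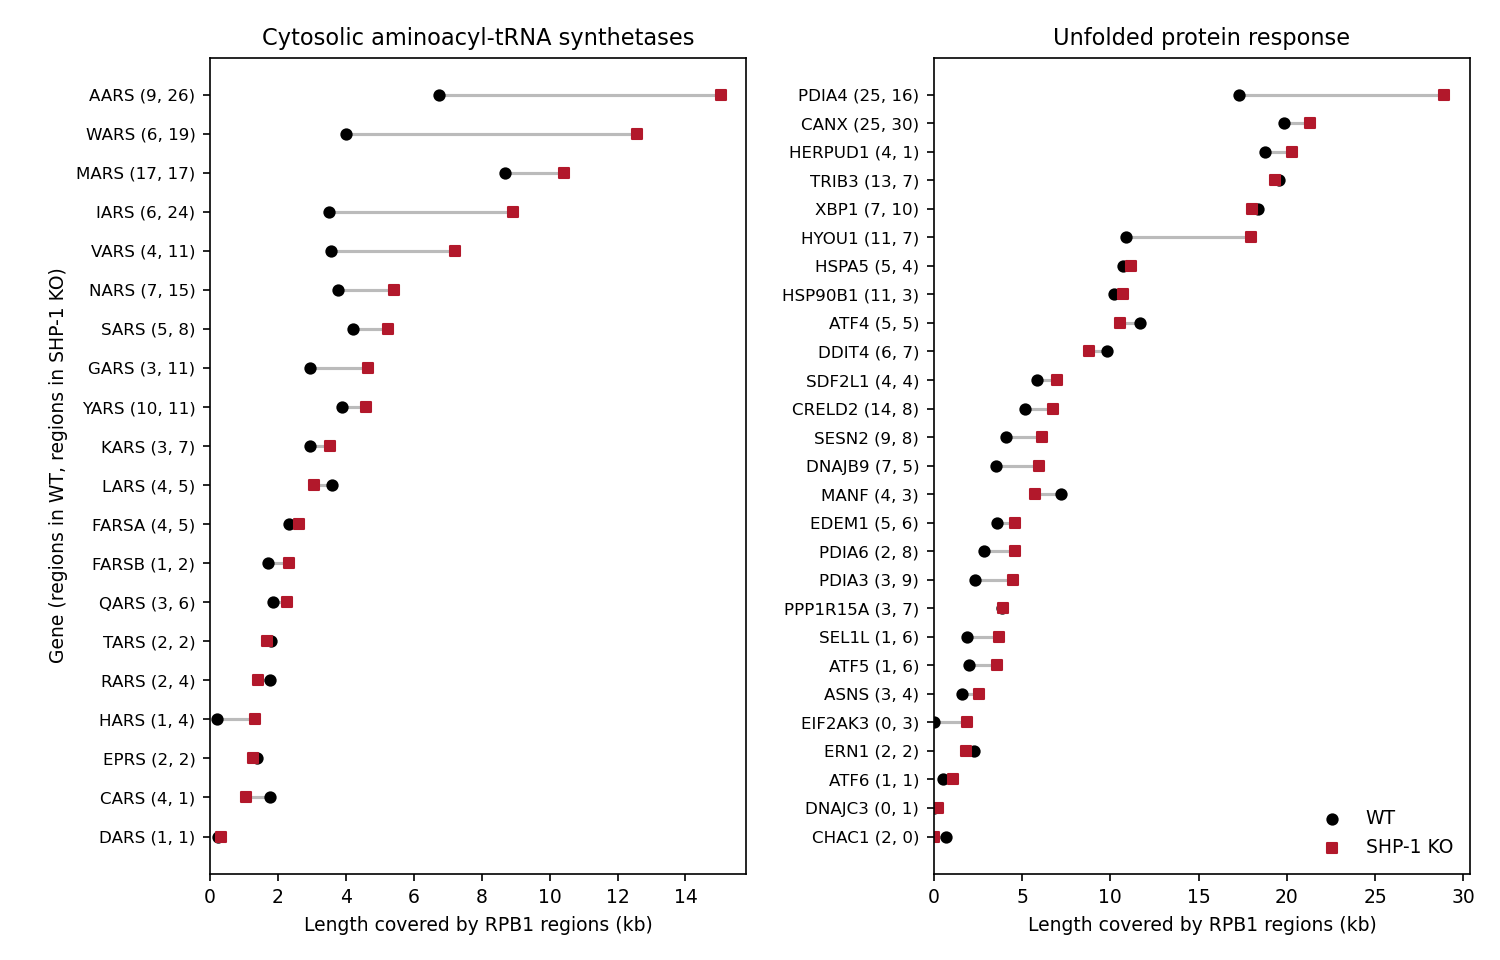
Length covered by RPB1 regions (kb) in WT (circles) and SHP-1 KO cells (squares) for each cytosolic aminoacyl-tRNA synthetase (left) and each gene of the unfolded protein response (right), with the number of regions in WT and in KO after the name. The covered length was longer in KO for 15 of 20 synthetases and 20 of 27 genes of the unfolded protein response.

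Medians over function lists lay between −9.80 and 10.6 points at promoters. Of 52 lists with at least 5 promoters compared, none had a median shift of −10 points or lower and 1 had 10 or higher, the small nuclear RNA genes, with a median of 10.6 over 22 genes. That value rested on chromosome 1, since without its part before 87.8 Mb the median was 4.45 over 18 genes. The next highest medians were those of small nucleolar RNA genes (7.72 over 64 genes) and replication-dependent histones (5.76 over 31), and the lowest were those of metallothioneins (−9.80 over 6), coagulation (−8.12 over 17) and known STAT5 targets (−7.81 over 9). Of 64 small nucleolar RNA genes 13 rose and 2 fell, but only 5 of the 13 held at the same place, as these genes lie inside host genes. Of 31 replication-dependent histone genes 7 rose, all held, and 2 fell. HIST1H4C had 28.7 in WT and 32.5 in KO cells (percentile 55.03 to 80.4), but a shift of 9.14 points with regions ranked by q-value. Of 69 cytosolic ribosomal protein genes 12 rose, 8 of which held, and 1 fell (all genes, 5.04% and 7.36%). RPL23 had 13.6 and 27.1, RPL41 28.2 and 40.2, RPS9 37.5 and 52.9, and the one that fell, RPS27, 39.9 and 19.2. With regions ranked by q-value, RPL41, RPS9 and RPS27 were at 16.7, 3.57 and −11.5 points. Small RNA, histone and ribosomal protein genes have near-identical copies, so the reads behind their regions may be shared and their values are uncertain.

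Among cholesterol and sugar metabolism promoters with a region in both lists, a few fell and none rose. Of 21 genes of cholesterol synthesis and uptake 3 fell and none rose (all genes, 7.36% and 5.04%), with a median of −6.65 points (all genes, −1.37). A promoter region was in WT only for 1 further gene and in KO only for 3, so promoters in 1 list only leaned the other way. HMGCS1, the HMG-CoA synthase, had 56.2 in WT and 25.4 in KO cells (percentile 90.9 to 67.1). Its shift was −15.6 points with regions ranked by q-value and −18.2 with regions summed. All 3 held at the same place, but so few falls cannot be told apart from the share over all genes. Of 21 genes of gluconeogenesis and glycolysis 4 fell, 3 of which held at the same place, and none rose (all genes, 7.36% and 5.04%), and 4 more had a promoter region in WT only (all genes, 7.64%). Among them were 3 of the 4 PFKFB genes, the bifunctional enzymes that set fructose-2,6-bisphosphate. PFKFB2 had 43.8 and 15.6, PFKFB3 35.5 and 13.98 and PFKFB4 27.7 and 8.83, while PFKFB1 had 5.88 in WT and no region in KO cells. PFKFB4 had 13 pSer2 regions in WT and 0 in KO cells, and with regions summed its promoter was at −15.2 points. PCK1, the enzyme that commits oxaloacetate to gluconeogenesis, had 6 regions in WT and 0 in KO cells. Its WT promoter value was 6.96, at the 12.1 percentile, so it was a weak promoter in WT too. G6PC had no region in either list. Of 15 regulators of gluconeogenesis compared, none fell or rose.

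Cytokine signaling promoters with a region in both lists went down where they moved. Of 9 known STAT5 targets 4 fell and none rose, and of 22 genes of JAK, STAT and their feedback 4 fell and none rose, with CISH and SOCS3 in both lists (all genes, 7.36% and 5.04%). All of these held at the same place. With genes of either list ranked together, CISH, EPOR and STAT2 were at −18.2, −18.8 and −18.4 points and so no longer fell, and with regions summed ONECUT1 was at −2.02. CISH, a feedback inhibitor of STAT5, had 33.0 in WT and 16.4 in KO cells (percentile 63.4 to 42.4). SOCS3, a feedback inhibitor of JAK kinases, had 27.3 and 10.6 (52.3 to 24.9). PIM2, a survival kinase, had 55.6 and 25.3, ONECUT1, a liver transcription factor, 40.6 and 16.1, EPOR, the erythropoietin receptor, 20.5 and 7.60, and STAT2, of the interferon pathway, 26.7 and 12.1. SOCS2 had no region in WT and a single weak one of 2.91 in KO cells. STAT5A itself went from 8.48 to 4.12, at the low end of both lists, and STAT5B had 43.8 and 35.7, at the 79.9 and 84.7 percentile. PTPN6 had 3 regions in WT and 1 in KO cells, with a promoter value of 23.95 and 17.2, at the 45.7 and 44.7 percentile. Its occupancy does not measure SHP-1 protein and so does not check the labels.

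Other groups were mixed. Of 197 solute carrier promoters 24 fell, 22 of which held, and 6 rose, 3 of which held (all genes, 7.36% and 5.04%). SLC13A5, the hepatic citrate carrier, had 61.0 in WT and 23.6 in KO cells, SLC6A6, the taurine carrier, 55.1 and 24.2, and SLC40A1, the iron exporter ferroportin, 46.2 and 17.4. With regions ranked by q-value, SLC13A5 and SLC6A6 were at −19.5 and −10.1 points. Of 37 DNA replication promoters 5 rose, all held, and none fell (all genes, 5.04% and 7.36%), while the median was −3.35 points, with 22 shifted down and 15 up. The genes that rose included POLA2, a subunit of DNA polymerase alpha, at 29.3 and 40.5, and POLD2, of DNA polymerase delta, at 17.5 and 26.4. Both fell over the gene body, from 8.03 to 5.24 and from 7.01 to 5.28. In the transcription machinery, 4 of 30 promoters of pause release factors and RPB1 tail enzymes fell and none rose (all genes, 7.36% and 5.04%), and 3 further genes had a promoter region in KO only. They were SUPT5H, a subunit of the pausing and elongation factor DSIF, with 44.3 and 17.3, ELL, an elongation factor, with 32.1 and 15.5, SSU72, a tail phosphatase, with 35.7 and 18.2, and CCNH, the cyclin of the kinase in TFIIH, with 21.4 and 8.56. Ranked together, ELL, SSU72 and CCNH were at −18.9, −17.5 and −17.7 points, and SUPT5H was at −18.5 with regions ranked by q-value and −8.55 with regions summed, so these calls depend on the ranking. Of 11 RNA pol II subunits, POLR2E and POLR2G rose, from 31.4 to 34.5 and from 17.5 to 24.2, but with regions summed POLR2E was at 0.083 points. POLR2A, which encodes RPB1, had 70.5 and 56.2 and stayed at the 96.7 and 96.9 percentile, and POLR2J had no region in either list. Among plasma proteins, AFP, the fetal albumin, rose from 34.2 to 40.2 and ALB, albumin, had 24.4 and 24.1. With regions summed, the AFP promoter was at 10.1 points. The coagulation list had a median of −8.12 points over 17 genes, with F10, coagulation factor X, at 42.0 and 20.4. With regions ranked by q-value, F10 was at −13.7 points.

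Over gene bodies 4 of 45 lists had a median of −10 points or lower and 2 of 10 or higher, all with 13 genes or fewer. Of 12 immediate early genes 5 fell and none rose (all genes, 20.5% and 15.1%), with a median of −19.1 points. They were BTG2, DUSP1, JUN, KLF10 and ZFP36, of which JUN did not hold at the same place, with DUSP1, a MAP kinase phosphatase, at 7.34 and 5.16, and ZFP36, which destabilizes messenger RNAs, at 9.01 and 5.77. Of 13 ABC transporters 6 fell and 4 rose (all genes, 20.5% and 15.1%), with a median of −17.4 points. ABCC2 had 11.5 and 6.74, ABCC6 13.99 and 6.33, ABCA1, the cholesterol exporter, 7.11 and 4.30, and ABCC5, which rose, 3.62 and 7.17. The others were DNA replication (−23.8 over 9 genes), NF-kB (−11.6 over 8), JAK and STAT genes (16.2 over 7) and mitosis (31.9 over 7). Among splicing factors 16 of 51 rose and 5 fell (all genes, 15.1% and 20.5%), with a median of 9.67 points. SRSF1, a founding member of the SR proteins, rose over the body from 5.27 to 8.12 and at the promoter from 36.1 to 54.97. With regions ranked by q-value its promoter was at 6.44 points. HNRNPU, a nuclear matrix protein, had 6.12 and 9.63 over the body, and SRSF7 4.81 and 7.09. With fold enrichment summed over the regions of a gene in place of the highest, the gene body shifts of BTG2, ZFP36, POLA2 and SRSF1 changed direction. None of the 5 immediate early genes then fell, with DUSP1 at −0.67, KLF10 at −8.60 and JUN at −10.8 points, and neither did ABCC2 (−0.49) or ABCC6 (−4.17).

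**Figure D4:**
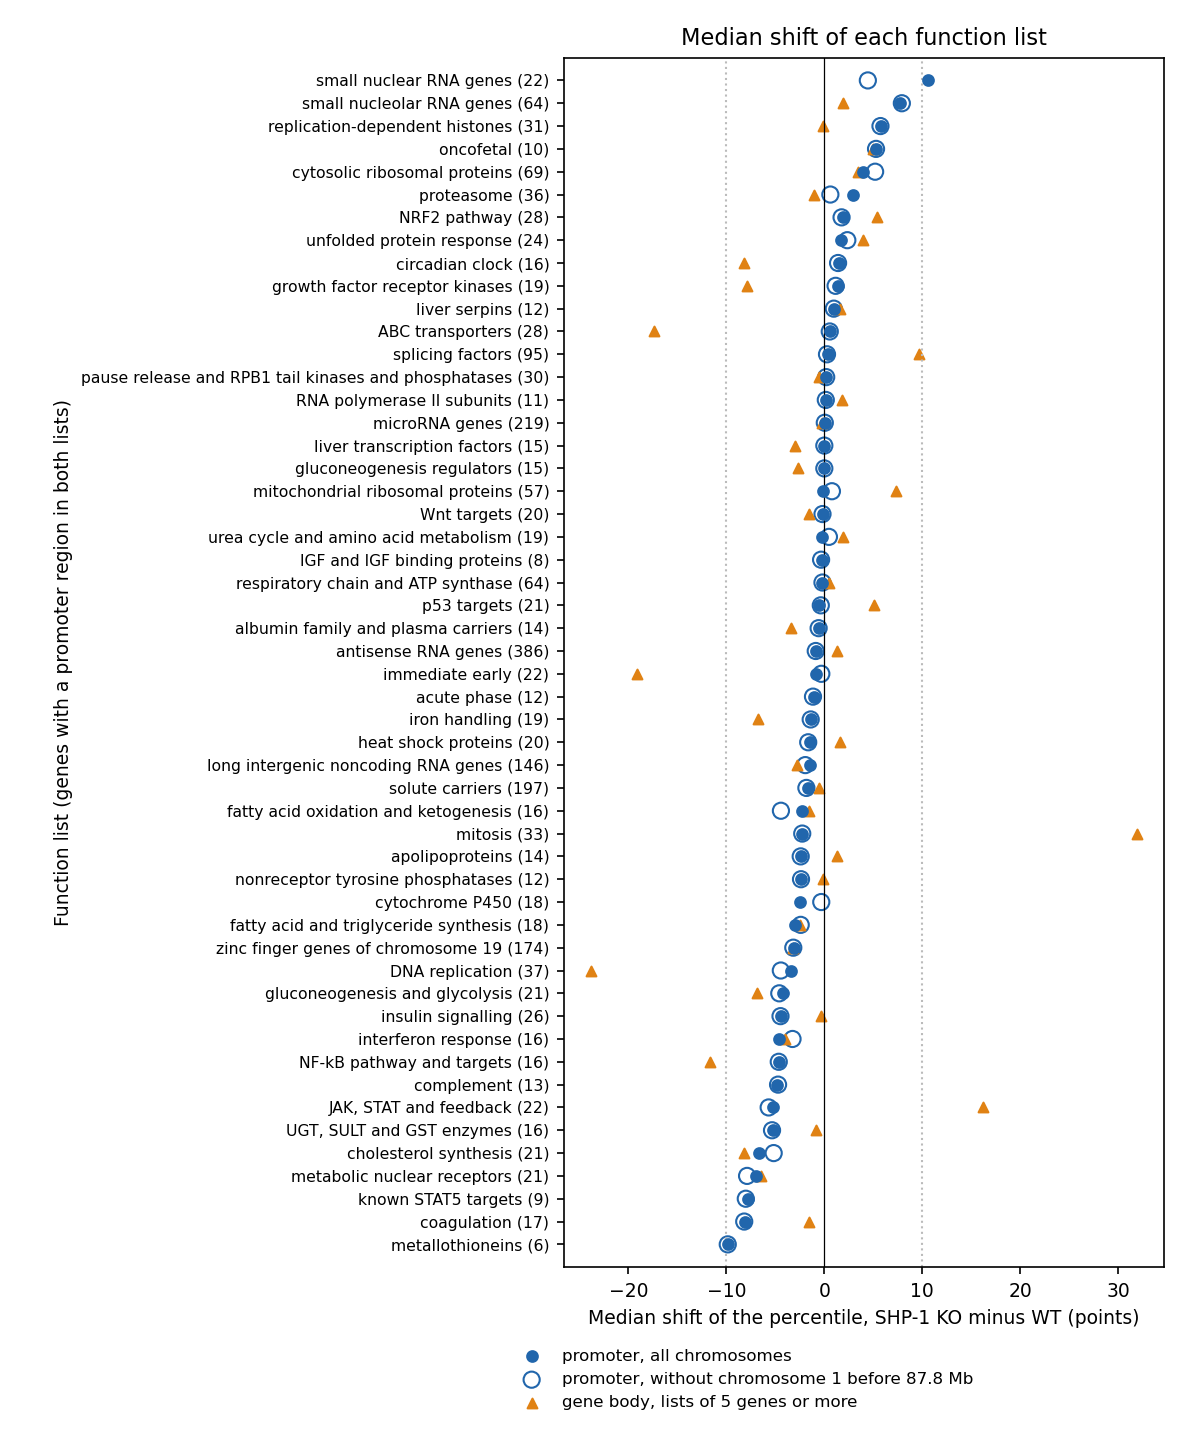
Median shift of the percentile (KO minus WT, points) for the function lists with at least 5 promoters compared, at promoters (filled circles), at promoters without chromosome 1 before 87.8 Mb (open circles) and over gene bodies (triangles), with the number of promoters after each name and dotted lines at −10 and 10 points. Only the small nuclear RNA genes exceeded 10 points at promoters (10.6), and without that part of chromosome 1 they were at 4.45.

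The counts varied along the genome. Chromosome 1 before 87.8 Mb held 2967 WT and 2253 KO regions. Of 558 promoters compared there 60 fell (10.8%) and 16 rose (2.87%), with a median of −3.75 points, and beyond that position 46 of 592 fell (7.77%) and 38 rose (6.42%), with a median of −0.74. Of the 730 genes of the first part 15.3% had at least 3 more regions in WT and 3.56% in KO. Chromosome 19 had a like excess, with 9.92% of 897 promoters fallen, 5.46% risen and 15.5% of its genes with more regions in WT, and chromosomes 10 and X had medians of −3.38 and −3.86 points. Of the 3 promoters on each side of that position, those before it shifted by 23.3 (CLCA4-AS1), 11.8 (SELENOF) and 2.22 points (LMO4), and those after it by 3.17 (PKN2-AS1), −16.3 (GTF2B) and −3.14 points (RBMXL1). Without chromosome 1 before 87.8 Mb, 777 promoters fell and 547 rose, the median over all genes was −1.34 points, and of the 8 largest falls 1 changed, with ARL6IP4 in place of SNORD45B.

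**Figure D5:**
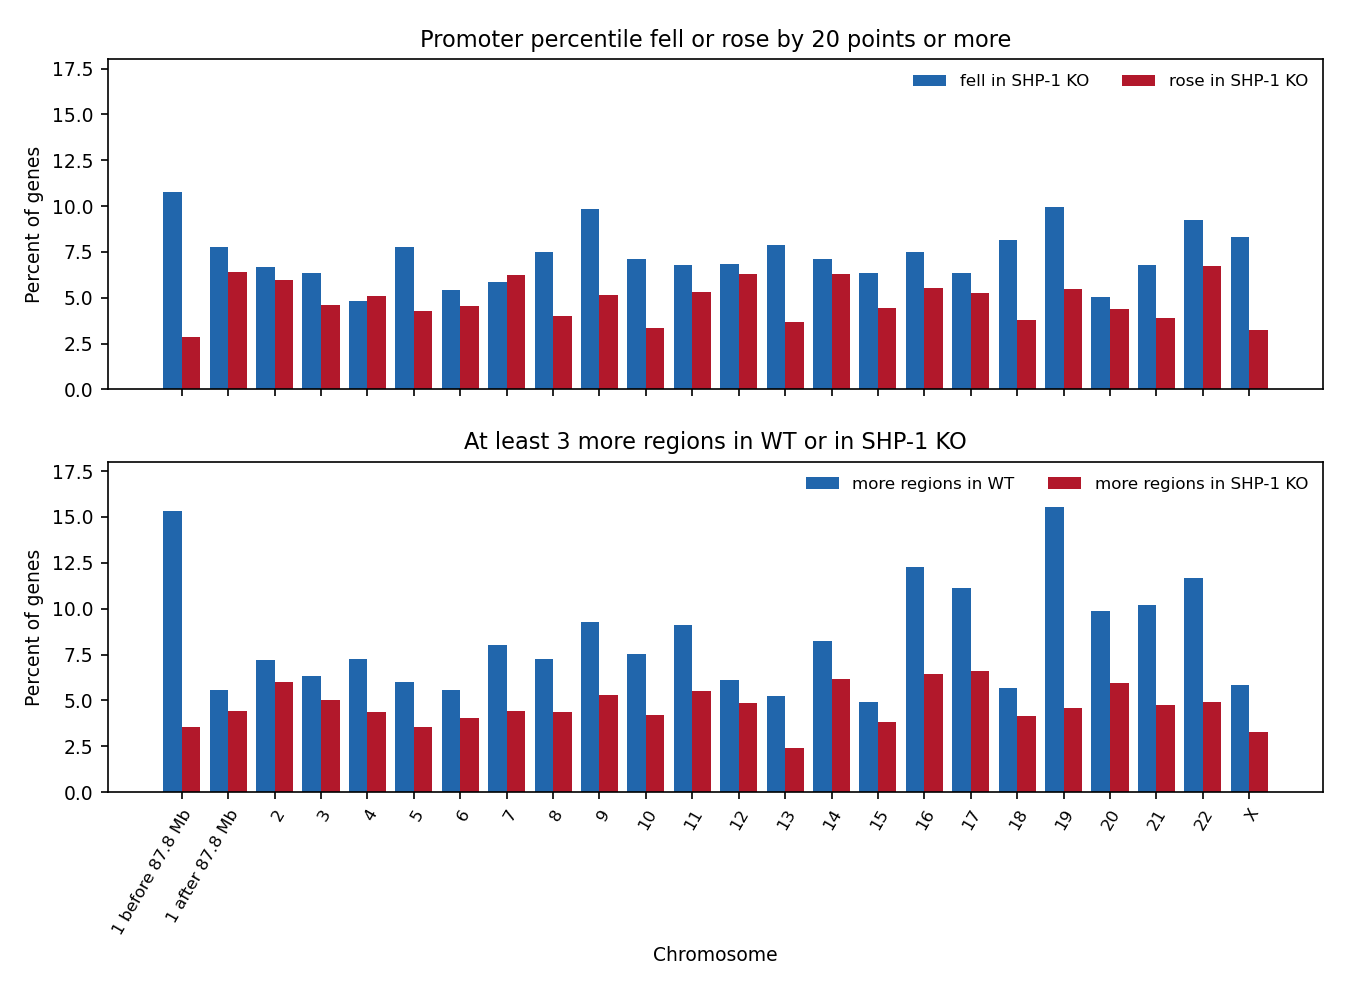
Percent of genes per chromosome whose promoter percentile fell or rose by 20 points or more (upper panel) and that had at least 3 more regions in WT or in SHP-1 KO cells (lower panel), with chromosome 1 divided at 87.8 Mb. Chromosome 1 before 87.8 Mb had 10.8% fallen and 2.87% risen, and it and chromosome 19 had the highest shares of genes with more regions in WT (15.3% and 15.5%).

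The pSer2 lists were a separate readout of the same cells, made with another antibody but against the same inputs. Over all 6768 genes with a pSer2 gene body region in both lists the median shift was −3.07 points, 21.6% fell and 11.6% rose. Genes whose RPB1 promoter fell had a median pSer2 shift of −6.24, with 28.9% fallen and 9.44% risen, and those whose RPB1 promoter rose had −2.05, with 20.4% fallen and 13.3% risen. Where the RPB1 gene body fell, the pSer2 median was −8.13 and 28.1% fell, and where it rose the median was 0.12, with 12.3% fallen and 14.4% risen. Genes with more RPB1 regions in WT had a median of −6.65 and those with more in KO −0.22. With an RPB1 gene body region in WT only the median was −8.82, and in KO only −0.24. Genes with a promoter region in 1 list only did not follow this order, with −1.77 for WT only and −3.03 for KO only. Among genes that moved in RPB1 and had a pSer2 gene body region in both lists, most had pSer2 shifts under 20 points. Of the 828 genes whose promoter fell, 360 had such a region in both lists, 131 in WT only and 27 in KO only. For the 567 genes whose promoter rose the counts were 294, 54 and 36, and for all 14746 genes 6768, 1610 and 575.

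Promoter sequence features are given as a description. The sequence table held too few of all compared genes, so protein coding genes were used, a choice made after the data were seen, and 82.7% of those had an entry. The median GC content of these windows was 66.0% for 616 genes that fell, 64.7% for 403 that rose and 65.7% for all 8084. CCAAT, on either strand, was in 36.4%, 40.4% and 36.9%, CCGGAAGT, a core of ETS factor sites, in 8.44%, 11.7% and 8.89%, GGGCGG in 74.0%, 73.2% and 71.7% and TATAAA in 4.38%, 6.20% and 5.16%. TTCNNNGAA, the core of STAT sites with 3 free bases, was in 6.66%, 6.70% and 6.19%. TGACGTCA was in 3.57%, 3.97% and 3.20%. CAAAGTCCA was in 3, 0 and 22 windows. The letters TTGCGCAA were in 0, 1 and 17 windows. In all 27195 promoters of the table, CCAAT was in 35.7%, CCGGAAGT in 4.45%, GGGCGG in 44.7%, TATAAA in 12.0%, TTCNNNGAA in 7.89% and TGACGTCA in 1.98%. Matches of different motifs could overlap, and a match of letters is not a bound site.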

How the data were processed

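RPB1 and pSer2 ChIP-seq was done in untreated WT (CRISPR control) and SHP-1 KO HepG2 cells, 1 library each, with 2 input libraries that were not analysed here. In the MUGQIC pipeline, the authors used Trimmomatic for trimming and BWA for alignment (hg38). Each ChIP library was compared with its own input by MACS2 to give narrow peaks, and every region was annotated with a class and a gene. Tool versions are not given in the sources used here. The deposited lists give fold enrichment over input, which is a ratio, the −log10 p-value and −log10 q-value and positions in bp. The authors' own csaw comparison, with p-values and numbers of windows up and down per region, was not used. The lists hold no read counts, so depth is unknown and no interval could be given.

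Per gene symbol the number of regions, their covered length and the highest promoter (all within 1 kb of a start) and gene body (exon, intron and UTR) fold enrichment were taken. Percentiles were 100 times (average rank minus 0.5) divided by the number of genes with such a region in that list. Shifts of 20 points, differences of 3 regions and list medians of 10 points were described as changes. Regions without a gene (2 in WT, 0 in KO) were left out. All 87648 RPB1 regions lay within their hg38 chromosome, and 99.9% of gene IDs were in the RefSeq table. Overlap at the same place required 1 bp. Named genes were the 8 largest falls and rises per measure, the 6 highest promoters of 1 list, the 5 largest differences in region number each way, the 8 highest promoters, called members of the lists and the genes PCK1, PTPN6, G6PC, POLR2A, POLR2J, STAT5A and STAT5B. Members, the 53 function lists and this rule were chosen with earlier results of these data known, and 2 lists were added after values were seen. Some called genes are not reported here. The functions were tested on simulated data. Python 3.11.15, pandas 2.3.3, NumPy 2.4.6 and Matplotlib 3.10.9 were used.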

Additional observations from a re-analysis of the deposited data

How the results depend on the processing

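No paired analysis was possible because each side had 1 library. The limits are that no value has a replicate check, that depth, clone, copy number and batch cannot be separated from genotype, and that the region lists depend on the peak caller and on the authors' assignment of regions to genes. Alternatives added after the data were seen were the reading of the same place, the covered length, the synthetase list without IARS and AARS and the restriction to protein coding genes. When regions were ranked by −log10 q-value, 502 promoters fell and 302 rose. With a shift of 30 points, 260 promoters fell and 170 rose, and 604 gene bodies fell and 412 rose. When only regions with a −log10 q-value of 5 or more were kept, 625 gene bodies fell and 438 rose, and 587 genes had more regions in WT and 340 in KO. With genes of either list ranked together, 1664 gene bodies fell and 1746 rose. With a difference of 5 regions, 441 genes had more in WT and 206 in KO. The KO-only promoters numbered 327 without an overlapping WT promoter region and 320 without any overlapping WT region. Under the −log10 q-value of 5 and without chromosome 1 before 87.8 Mb, 0 lists reached a promoter median of 10 points. Of 70 counts under an alternative, 52 stayed within 1.5 times the reported count. For shifts of single genes, 729 of 805 values kept direction and size, 67 were under 20 points and 9 changed direction. These 9 came from summing fold enrichment over the regions of a gene, and the cause was not tested. The promoter shift of ARHGEF10L was then −2.22 points. The gene body shift was 9.70 for BTG2, 31.8 for GARS, 1.26 for POLA2, −23.5 for SRSF1, −9.94 for STAT5B, −1.04 for TUG1, 15.005 for VARS and 8.23 for ZFP36.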

Other observations

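Some genes of fatty acid breakdown and of insulin signaling had more regions in WT, and none had more in KO. Of 20 occupied genes of fatty acid oxidation and ketogenesis 8 had at least 3 more RPB1 regions in WT and none had more in KO (all genes, 8.78% and 4.86%), with 102 and 57 regions in sum. The covered length was longer in WT for 13 of the 20 and longer in KO for 7 (all genes, 70.0% and 29.9%), so it did not lean to WT more than over all genes. Among the 8 were ACAA1, ACADM, ACADS, BDH1, CPT1A, ETFB and PPARA. CPT1A, which controls the entry of fatty acids into mitochondria, had 6 and 1, BDH1, of ketone body synthesis, 19 and 7, and PPARA, the nuclear receptor that regulates this pathway, 8 and 2. Their pSer2 regions numbered 244 in WT and 117 in KO cells over the 20 genes. Of 28 occupied genes of insulin signaling 8 had more regions in WT and none more in KO, with 148 and 110 regions in sum. AKT2, a kinase of this pathway, had 7 and 2, and TSC2, an inhibitor of mTORC1 signaling, 5 and 1. Their pSer2 regions numbered 306 and 247, close to the decline over all genes, which had 95601 and 76227. Promoter ranks in both lists moved little, with medians of −2.25 and −4.42 points (all genes, −1.37).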
